A study of Mus with 17 samples.

Results

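The matrix metalloproteinases Mmp2, Mmp9 and Mmp14 and the tissue inhibitors of metalloproteinases Timp1 and Timp3 were followed in the abdominal aorta of mice infused with angiotensin II with or without neferine, an alkaloid of the lotus seed. They were chosen by gene, as 1 Ensembl transcript each: ENSMUST00000034187 for Mmp2, ENSMUST00000017881 for Mmp9, ENSMUST00000089688 for Mmp14, ENSMUST00000009530 for Timp1 and ENSMUST00000020234 for Timp3. These are 5 of the 39614 transcripts listed in all 17 files. The gene names were given with the choice of the 5 transcripts, since the files hold identifiers alone.

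All 17 samples were abdominal aorta of wild-type C57BL/6 mice treated for 42 days. The 5 Control samples had saline and double distilled water. The 6 AngII samples had angiotensin II, the hormone of the renin system that raises blood pressure, at 500 ng/kg/min and the same water. The 6 AngII with neferine samples had that infusion and neferine at 1 mg/kg/day. The labels give no age and do not say whether a sample is 1 animal, so every p-value here reflects the spread over these samples, which may be technical. The members and tests were chosen with earlier results of these data known, so no p-value here is that of an unselected test.

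Matrix metalloproteinases (MMPs) are zinc-dependent enzymes that are made as inactive precursors and cut the proteins of the extracellular matrix, such as collagens and elastin, which give an artery its strength and recoil. The tissue inhibitors (TIMPs) bind active MMPs and block them, so matrix turnover depends on both sides. In the aortic wall, smooth muscle cells, fibroblasts and leukocytes make these proteins, and they are widely studied in hypertension and aneurysm. RNA level says nothing of activation or inhibition of the proteins.

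Each file holds 1 linear abundance signal per transcript, whose unit the files do not name and whose read depth is unknown. Relative depths estimated from the lowest values were alike, between 0.980 and 1.11 of that of AngII replicate 5. Each rough estimate took the most common ratio among 116 to 310 low values, in a window that held only 24.4% to 32.5% of them. AngII replicate 6 stood apart, with a median rank correlation (Spearman, across transcripts) of 0.455 to the rest and 16.4% of shared transcripts listed at 0, against 0.606 to 0.680 and 4.39% to 10.1% in the other 16. The 10 highest transcripts took 30.9% of the signal in AngII replicate 2 and 28.9% in neferine replicate 1, against 10.5% to 21.5% elsewhere. Of the 5 members, all 5 passed the filter on low values (a signal of at least 1 in at least 5 libraries), as did 29983 transcripts in all. Differences below are of log2(signal + 1), fitted with limma on all 29983, and calls were made at an adjusted p (Benjamini-Hochberg) below 0.05. The neferine files list a different set of transcripts from the other 11, so effects of neferine and of the file set cannot be told apart. Markers of cell types were not analysed here, because no identifier could be paired with a gene name, and the tissue label was therefore not checked.

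No member was called in any of the 3 comparisons. In both neferine comparisons Mmp9 had the largest fitted difference, with lower signals under neferine, while for AngII against Control Mmp2 differed most, by -0.72. Without neferine replicate 5, Timp1 differed more than Mmp9 in both neferine comparisons (1.57 and 1.80 beside -1.13 and -1.48, against AngII and Control in turn). With all libraries, in 4 of 6 neferine libraries Timp1 lay above every library of the other groups, and in replicate 5 below all of them. The share of transcripts with such a partial separation was not counted, so how unusual it is cannot be said. Mmp2, Mmp14 and Timp3 differed less between groups than between libraries of a group. In this bulk tissue, fewer cells of a type and less RNA per cell cannot be told apart.

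Mmp2 encodes gelatinase A, which degrades denatured collagen and the type IV collagen of basement membranes. Its Control signals were 35.1, 30.0, 47.1, 62.6 and 65.5. In AngII they ran from 3.23 (replicate 1) over a median of 38.4 to 78.2 (replicate 3). With neferine they ran from 10.7 (replicate 4) over a median of 61.5 to 95.1 (replicate 2). The groups overlapped throughout, and AngII replicates 1 and 6 and neferine replicate 4 were the lowest 3 of the 17 libraries, with 17.7 in AngII replicate 6. In Control the mean was 48.0 ± 15.9 (SD, n = 5). In AngII it was 38.4 ± 26.6 (SD, n = 6), and neferine gave 58.2 ± 30.6 (SD, n = 6). AngII differed from Control by -0.72 ± 0.649 (SE) on the log2 scale, which did not pass (limma, adjusted p = 0.812), with a 95% interval of -2.09 to 0.65. That value rested on 1 library, being -0.17 without AngII replicate 1. Neferine differed from AngII by 0.79 ± 0.619 (SE; limma, adjusted p = 0.952; 95% interval -0.52 to 2.10), by 0.24 without AngII replicate 1, and by 1.20 without neferine replicate 4 (limma, unadjusted p = 0.0518, adjusted p = 0.991). Neferine and Control differed by 0.07 ± 0.649 (SE; limma, adjusted p = 0.987). The exact two-sided permutation p of the 3 comparisons were 0.394, 0.335 and 0.924, where 0.00216 is the smallest this design can give.

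Mmp9 encodes gelatinase B, which shares substrates with Mmp2 and is stored and released by neutrophils and made by activated macrophages. Its Control signals were 1.55, 5.99, 2.39, 2.77 and 3.71. In AngII, replicates 1 to 5 had 2.47, 2.25, 3.202, 2.19 and 5.64, and replicate 6 was listed at 0. With neferine, replicates 1, 2, 3 and 6 were listed at 0, replicate 5 was at 0.0185 and replicate 4 was at 5.24. Thus 5 of 6 neferine libraries lay below every Control library, and replicate 4 was the third highest of all. The share of tested transcripts with such a partial separation was not counted, while 2.08% parted these 2 groups fully in either direction. An exact 0 in such files can be a failed estimate, or the reads may have been assigned to another transcript of the gene, which was not tested, so these values are given as listed and no fold of the signals is given. The differences below are on the log2(signal + 1) scale, depend on the added constant and are no bound on a fold.

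Neferine differed from Control in Mmp9 by -1.57 ± 0.512 (SE) on the log2(signal + 1) scale, with a 95% interval of -2.65 to -0.49. The difference did not pass over all transcripts (limma, adjusted p = 0.342, unadjusted p = 0.00718), and its exact permutation p was 0.0238 (two-sided, not adjusted). It lay lower than those of all but 0.67% of the tested transcripts. Neferine differed from AngII by -1.22 ± 0.488 (SE; limma, adjusted p = 0.934, unadjusted p = 0.0235), with an interval of -2.25 to -0.19 and an exact permutation p of 0.0671. AngII differed from Control by -0.35 ± 0.512 (SE; limma, adjusted p = 0.889), with an interval of -1.43 to 0.73. That value was -0.0183 without AngII replicate 6, the library listed at 0, and -0.83 with 0.1 added in place of 1. The size of the neferine differences also depended on the constant, being -3.94 against Control and -3.11 against AngII with 0.1 in place of 1 (limma, adjusted p = 0.255 and 0.908). Without neferine replicate 4 it was -2.01 against Control (limma, adjusted p = 0.131, unadjusted p = 0.000113) and -1.66 against AngII (limma, adjusted p = 0.583). Over all alternatives the adjusted p of Mmp9 lay between 0.131 and 0.516 against Control and between 0.475 and 1.00 against AngII.

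To place the Mmp9 zeros, transcripts of like level were counted, a count chosen after the Mmp9 values were seen. Among 8678 tested transcripts with every Control signal at 1 or more and a Control and AngII mean between 1 and 10, 11 were listed at 0 in at least 4 neferine libraries, or 0.127%, Mmp9 among them. The choice of this set used the Control and AngII values and the minimum of 4 libraries is the count of Mmp9 itself, so the share is a description and no comparison with the other groups is made.

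Mmp14 encodes a membrane-anchored MMP that cleaves fibrillar collagen at the cell surface and activates the Mmp2 precursor. Its Control signals were 3.13, 4.0, 4.24, 2.49 and 4.35. In AngII they ran from 0.763 (replicate 6) over a median of 4.22 to 6.76 (replicate 3). With neferine they ran from 0.180 (replicate 4) over a median of 4.42 to 7.60 (replicate 6). The treated groups reached both above and below the Control range, and no order of the 3 groups held beyond their spread. The means were 3.64 ± 0.803 (SD, n = 5), 3.95 ± 1.98 (SD, n = 6) and 4.18 ± 2.94 (SD, n = 6) in Control, AngII and neferine. The log2 differences were -0.02 ± 0.465 (SE) for AngII against Control, -0.09 ± 0.443 (SE) for neferine against AngII and -0.10 ± 0.465 (SE) for neferine against Control (limma, adjusted p of 0.995, 0.995 and 0.970). Their 95% intervals reached from -1.09 to 0.97 in all, and each of the 3 signs turned in some alternative fits.

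Timp1 encodes a secreted, inducible inhibitor of most soluble MMPs, which binds Mmp9 and its precursor. Its Control signals were 7.33, 4.80, 14.8, 11.4 and 16.6. In AngII, replicates 1 to 6 had 13.6, 7.15, 12.7, 16.7, 7.57 and 18.4. With neferine, replicates 1 to 6 had 14.6, 37.8, 28.8, 181.9, 2.24 and 24.9. Control and AngII covered nearly the same range, while neferine replicates 2, 3, 4 and 6 lay above all 11 libraries without neferine and replicate 5 lay below all of them. The medians were 11.4 in Control, 13.1 in AngII and 26.8 with neferine, and the neferine mean of 48.4 ± 66.5 (SD, n = 6) held replicate 4 far above the rest.

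Timp1 differed between neferine and AngII by 0.97 ± 0.658 (SE) on the log2 scale, with a 95% interval of -0.42 to 2.37, which did not pass (limma, adjusted p = 0.952; exact permutation p = 0.277). Against Control the difference was 1.20 ± 0.690 (SE; limma, adjusted p = 0.656; interval -0.26 to 2.66; exact permutation p = 0.229). Replicates 4 and 5 pulled these values apart. Without neferine replicate 4 they were 0.41 and 0.64 (limma, adjusted p = 0.991 and 0.812). Without neferine replicate 5 they were 1.57 and 1.80 (limma, adjusted p = 0.861 and 0.251, unadjusted p = 0.00701 and 0.00374). Over all alternatives the adjusted p of Timp1 lay between 0.782 and 1.00 against AngII and between 0.251 and 0.812 against Control. AngII differed from Control by 0.23 ± 0.690 (SE; limma, adjusted p = 0.952; interval -1.23 to 1.69). The Timp1 gene overlaps Syn1, a gene for a synaptic protein, in the RefSeq table of GRCm38.p6. No source states that strand was used, so reads of overlapping genes may not be told apart. The same holds for Timp3 with Syn3 and for Mmp2 with the long non-coding gene Gm45472.

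Timp3 encodes the inhibitor that stays bound to the extracellular matrix and also blocks ADAM and ADAMTS proteases. Ranked among the 39614 transcripts listed in all 17 files, it lay at percentiles of 99.4 to 99.9 in every library. Its Control signals were 471.04, 497.4, 397.1, 421.1 and 473.8, the closest agreement of any member in any group. In AngII they ran from 191.1 (replicate 2) over a median of 531.8 to 678.5 (replicate 4), and with neferine from 293.7 (replicate 1) over 598.6 to 708.4 (replicate 6). These 2 were also the libraries in which the 10 highest transcripts took the largest share of the signal, and scaling to a common upper quartile left them lowest, at 214.5 and 318.5. The part of that imbalance in their Timp3 values was not tested. AngII had 3 libraries above and 2 below the Control range, and neferine had 4 above and 1 below. The log2 differences were 0.01 ± 0.301 (SE) for AngII against Control, 0.23 ± 0.287 (SE) for neferine against AngII and 0.23 ± 0.301 (SE) for neferine against Control (limma, adjusted p of 0.996, 0.966 and 0.868). The intervals of -0.63 to 0.64, -0.38 to 0.83 and -0.40 to 0.87 were the narrowest of the 5 members. The AngII value turned to -0.20 under quantile normalization, and without AngII replicate 2 it was 0.26. With the libraries that stood apart left out together (neferine replicate 1, AngII replicates 2 and 6), AngII differed from Control by 0.39 (limma, unadjusted p = 0.0279, adjusted p = 0.604) and neferine from Control by 0.40 (limma, unadjusted p = 0.0176, adjusted p = 0.317). Leaving out neferine replicate 1 alone also gave 0.40 for neferine against Control (limma, adjusted p = 0.813).

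**Figure D1:**
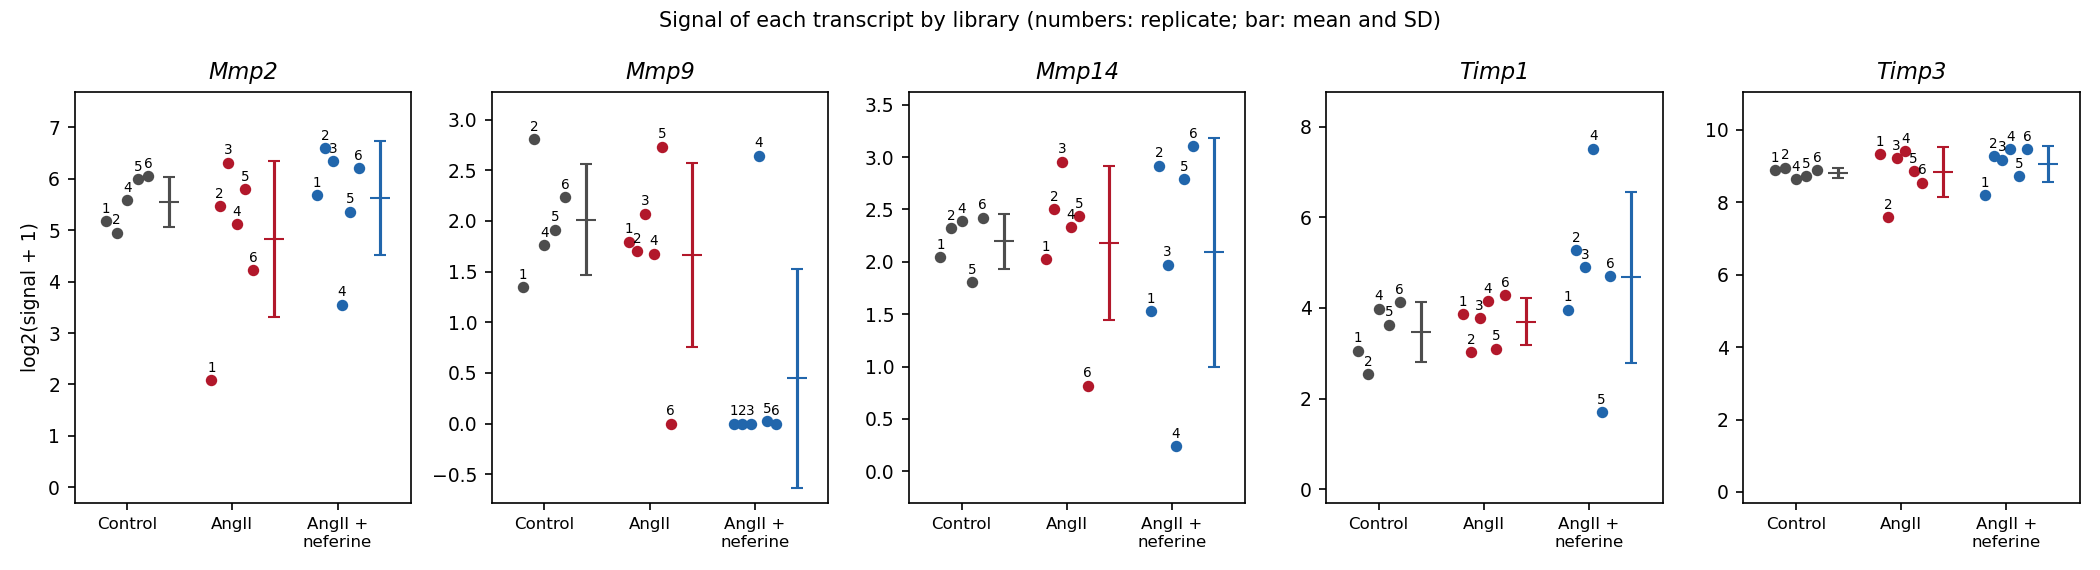
Signal of each of the 5 transcripts as log2(signal + 1) on the vertical axis, by group on the horizontal axis; each point is 1 library with its replicate number, and the bar beside each group is the mean and SD. Mmp9 sits at or near 0 in 5 of 6 neferine libraries, and Timp1 of neferine replicate 4 is the highest Timp1 value.

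The counts over all transcripts set the background for these comparisons. For AngII against Control, limma called 0 of the 5 members and 0 of the 29983 transcripts, a background of 0%. At an unadjusted p under 0.05 it found 2175 transcripts (7.25%), none of them members. An exact rank sum test called 0 in each of the 3 comparisons, but its p cannot go below 0.00433 with 6 against 5 samples or 0.00216 with 6 against 6, so over this many transcripts it could hardly call any. For neferine against AngII, 0 members and 0 transcripts (0%) were called by limma. There 1564 transcripts (5.22%) had an unadjusted p under 0.05, with 1 of the 5 members, Mmp9. For neferine against Control, limma called 11 transcripts (0.0367%), none a member. There 2622 transcripts (8.74%) had an unadjusted p under 0.05, again with Mmp9 as the 1 member. In no comparison did a member part the groups without overlap, against backgrounds of 0.807%, 0.263% and 2.08% of transcripts in the order above. The median log2 difference of the 5 members was -0.02, 0.23 and 0.07 in that order, beside -0.03, -0.00420 and -0.03 over all transcripts.

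**Figure D2:**
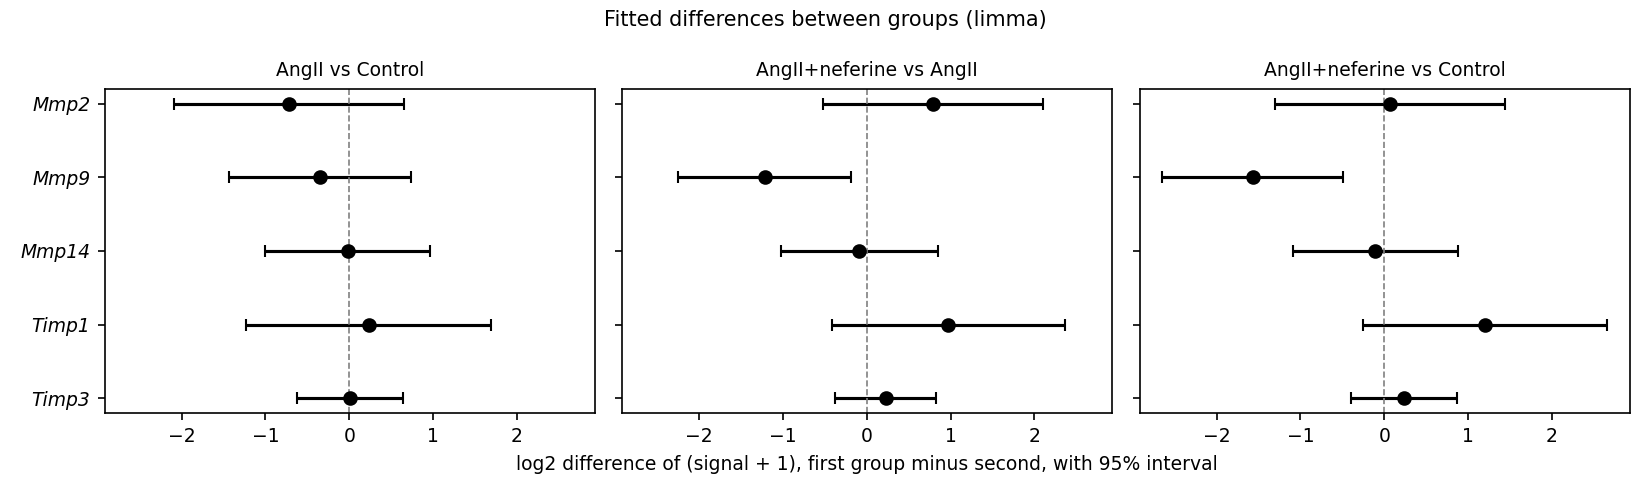
Fitted log2 difference of (signal + 1) on the horizontal axis for each member, as first minus second group, in 1 panel per comparison; points are limma estimates and bars 95% intervals. The Mmp9 intervals of both neferine comparisons, -2.25 to -0.19 and -2.65 to -0.49, lie below 0 before adjustment over all transcripts, and all other intervals include 0.

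Several members departed together in single libraries. In neferine replicate 4, Timp1 was the highest and Mmp14 the lowest of all 17 libraries, Mmp2 was the second lowest, and Mmp9 was well above 0 in this neferine library alone. Its median rank correlation with the rest, 0.662, and its share of transcripts at 0, 5.73%, lay within the ranges of the other neferine libraries, and its relative depth of 1.11 was the highest of the 17. In AngII replicate 6, the library with the most zeros, Mmp14 and Mmp2 were low and Mmp9 was listed at 0, while Timp1 at 18.4 was the highest of its group. In AngII replicate 1, Mmp2 stood at 3.23, the lowest of all 17 libraries. Its Mmp14 at 3.08, Timp1 at 13.6 and Timp3 at 642.9 lay within the ranges of the other AngII libraries. That Timp3 signal was above every Control library, of which the highest was at 497.4. Neferine replicate 5 held the lowest Timp1, with Mmp14 at 5.92 and Mmp2 at 40.03.

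**Figure D3:**
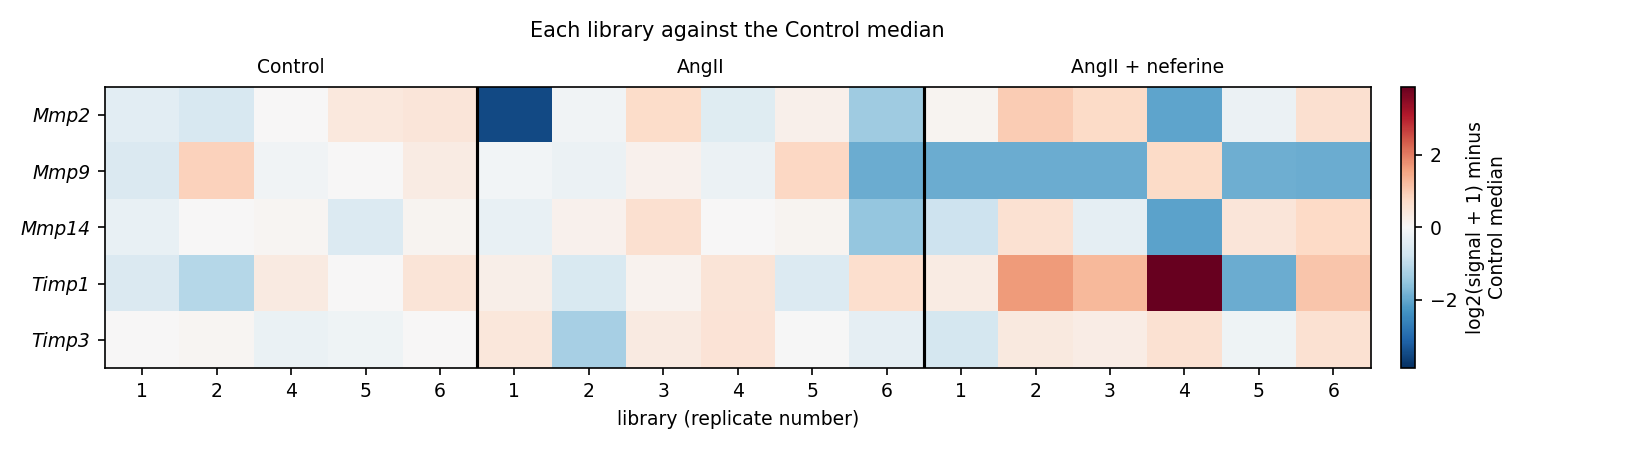
Log2(signal + 1) of each member (rows) in each library (columns, by group and replicate number) minus the Control median of that member, on a color scale from blue (lower) to red (higher). The deepest blue is Mmp2 in AngII replicate 1, at a signal of 3.23, and the deepest red is Timp1 in neferine replicate 4, at 181.9.

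The members also differed in how much they varied. Within groups, the SD on the log2 scale was 1.15 for Mmp2 and 1.23 for Timp1, and 88.3% and 90.4% of all tested transcripts varied less. Against the 1000 transcripts nearest in mean level, 89.2% and 90.0% varied less than Mmp2 and Timp1. Mmp9, at 0.89, Mmp14, at 0.80, and Timp3, at 0.51, were nearer the middle of their neighbours, of which 71.9%, 60.3% and 54.4% varied less. In signal, the coefficient of variation of Mmp14 was 22.03% in Control, 50.01% in AngII and 70.4% with neferine, and that of Timp3 was 9.17%, 37.99% and 29.9%. That of Mmp2 was 33.1%, 69.5% and 52.7%. Timp1 had 45.0%, 36.4% and 137.6%. Mmp9 had 51.8%, 69.5% and 243.9%. The neferine values of Timp1 and Mmp9 rest largely on 1 library, replicate 4, with signals of 181.9 and 5.24. The spreads of the groups were not tested against each other.

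Ratios of each MMP to each TIMP were formed within a library as log2 of (signal + 1) over (signal + 1). A factor common to the library partly cancels, except where a signal is near 0: with Mmp9 at 0 the ratio is set by the TIMP signal alone. They are compared between libraries only, since the files do not say whether signals are per length. The Mmp2/Timp1 ratio was tight in Control, at 2.08 ± 0.334 (SD, n = 5), and broad in AngII, at 1.13 ± 1.79 (SD, n = 6), and with neferine, at 0.95 ± 2.56 (SD, n = 6). With 1 added, no AngII library fell within the Control range of 1.60 to 2.42. Replicates 2, 3 and 5 lay above it, at 2.44 to 2.69, and replicates 1, 4 and 6 below it, at -1.78, 0.97 and -0.06. That depended on the constant. With 0.1 added, AngII replicates 2 and 3, at 2.57 and 2.61, lay within the Control range of 1.66 to 2.62. With nothing added they also lay within it, at 2.59 and 2.62, where Control reached 2.64. With neferine and 1 added, replicate 1 lay within the Control range at 1.72, and replicate 5 above it at 3.66. Replicates 2, 3, 4 and 6 lay below it, at 1.31, 1.44, -3.96 and 1.51.

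Of the 6 ratios, Mmp9/Timp1 had the largest differences between neferine and the other groups. Control had -1.46 ± 0.986 (SD, n = 5), AngII -2.04 ± 1.31 (SD, n = 6) and neferine -4.23 ± 1.33 (SD, n = 6). Of the neferine libraries, 5 of 6 lay below every Control library, and 4 of 6 below every AngII library. The exception to the former was replicate 5, at -1.67, in which Mmp9 and Timp1 were both low. The share of other transcript ratios with such a partial separation was not counted, so how unusual it is cannot be said. The place of replicate 5 depended on the constant: with 0.1 added it was at -4.30, and with nothing added at -6.92, below every Control library in both forms. Replicate 4, in which both genes were high, was at -4.87, and at -5.09 with 0.1 added. The Mmp9/Timp3 ratio was -6.81 ± 0.495 (SD, n = 5), -7.17 ± 1.01 (SD, n = 6) and -8.61 ± 0.986 (SD, n = 6), and here replicate 4, at -6.83, was the neferine library within the Control range. The ratios with Mmp9 rest on its zeros, and their sizes change with the added constant.

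For Mmp14/Timp1, Control had -1.27 ± 0.669 (SD, n = 5), AngII -1.52 ± 1.11 (SD, n = 6) and neferine -2.58 ± 2.71 (SD, n = 6), with neferine replicates 4 and 5 at the ends, -7.28 and 1.10. The ratios of Mmp2 and Mmp14 to Timp3 differed by at most 0.73 between the means of any groups, less than the SD of AngII, 1.80 and 0.94. With 1 added, all 18 combinations of ratio and comparison overlapped between groups. With 0.1 added, 17 did, and Mmp9/Timp1 of neferine, at -8.57 to -4.30, lay wholly below Control, at -2.58 to 0.31. With nothing added, which leaves neferine replicates 4 and 5 at -5.12 and -6.92 and drops AngII replicate 6, Mmp9/Timp1 of neferine lay below both other groups, whose lowest libraries were at -2.63 in Control and -2.93 in AngII. No p is given for the ratios, and the share of other transcript ratios that part the groups was not counted.

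**Figure D4:**
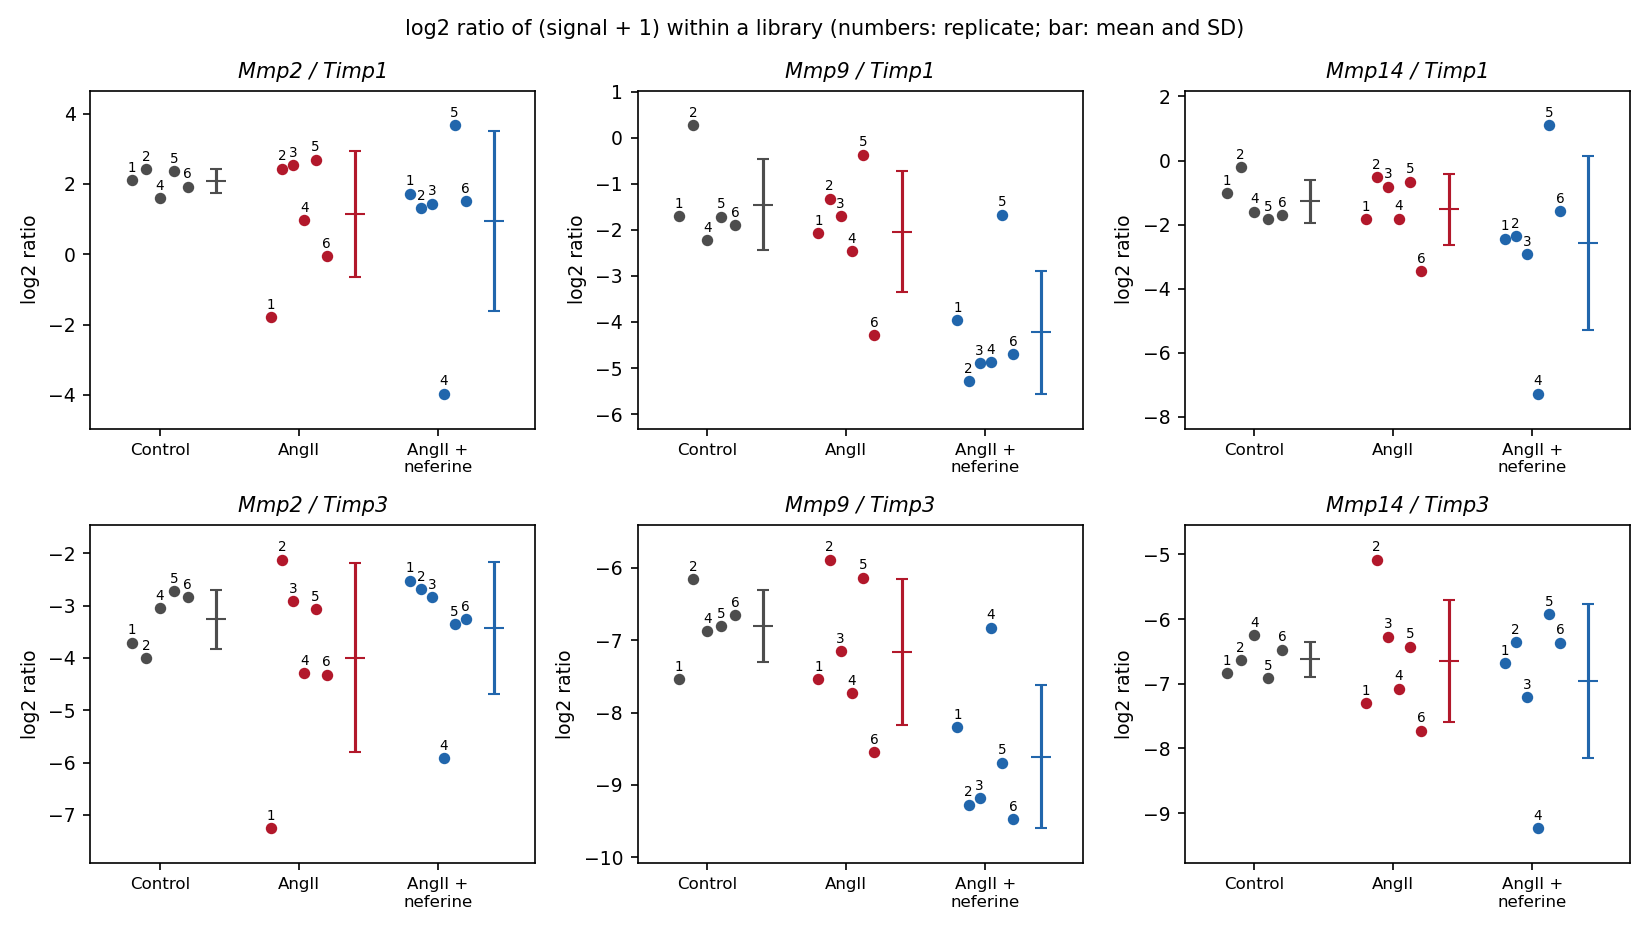
Log2 ratio of (signal + 1) of an MMP to that of a TIMP within each library on the vertical axis, by group; points are libraries with replicate numbers and bars are mean and SD. The Mmp9/Timp1 ratio is below every Control library in 5 of 6 neferine libraries, and the Mmp2/Timp1 ratio of Control spans 1.60 to 2.42 while the treated libraries run from -3.96 to 3.66. How common such patterns are among other transcript ratios was not counted.

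Whether members varied together was examined over the 17 libraries for all 10 pairs. Mmp2 and Mmp14 had a Pearson r of 0.556 (permutation p = 0.0249, adjusted over 10 pairs 0.208) and a Spearman rho of 0.525 (permutation p = 0.0331, adjusted 0.190). With group means removed, r was 0.601 (permutation p = 0.0132, adjusted 0.132) and rho 0.676 (permutation p = 0.00321, adjusted 0.0321). Without AngII replicate 1 and neferine replicate 4, the libraries farthest from the Mmp2 median, r was 0.593 and rho 0.443. Mmp14 and Timp1 had an r of -0.514 (permutation p = 0.0422, adjusted 0.208) and a rho of -0.206 (permutation p = 0.424). Without neferine replicate 4 and AngII replicate 6, the farthest from the Mmp14 median, that r was 0.0385, so the relation rested on these libraries. Timp1 and Timp3 had an r of 0.472 (permutation p = 0.0624, adjusted 0.208) and a rho of 0.512 (permutation p = 0.0379, adjusted 0.190), and r was 0.430 without neferine replicates 4 and 5. The gelatinases Mmp2 and Mmp9 had an r of -0.258 (permutation p = 0.332) and a rho of -0.261 (permutation p = 0.311). In the other 6 pairs the absolute r was at most 0.144 and each permutation p of r was at least 0.543. Of these, 3 turned sign without the 2 libraries farthest from the median of the first gene: Mmp2 with Timp1 went from -0.144 to 0.449 (rho 0.493), Mmp2 with Timp3 from -0.133 to 0.350 and Mmp9 with Timp3 from 0.0819 to -0.132. Mmp9 with Mmp14 went from -0.0970 to -0.432. For pairs with Mmp9 as the first gene, the libraries left out were AngII replicate 6 and neferine replicate 1. Both were listed at 0 and tied as farthest with neferine replicates 2, 3 and 6, and only their order among the libraries decided. The changes of these Mmp9 pairs therefore rest on an arbitrary choice among tied libraries. No pair passed over the 17 libraries after adjustment unless group means were removed, when Mmp2 and Mmp14 passed by rho and not by r. The permutations with group means removed moved the deviations freely over all 17 libraries. They made no allowance for the removed means, so their p can be too low and this pass is not relied on.

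**Figure D5:**
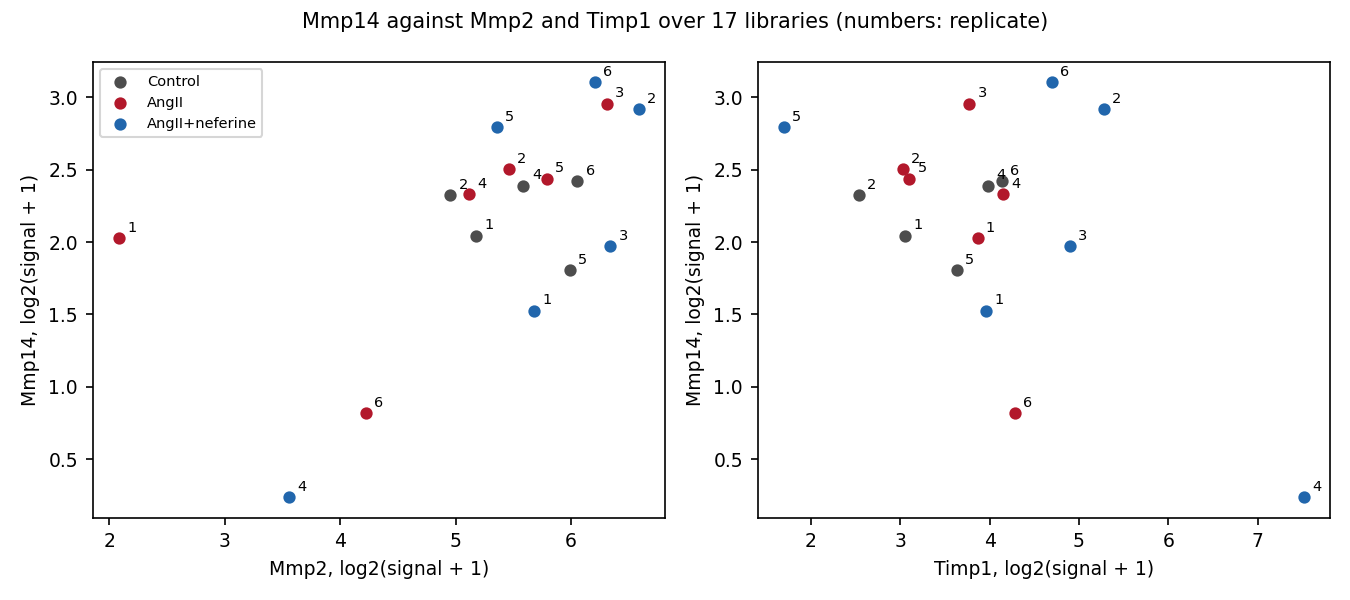
Log2(signal + 1) of Mmp14 against that of Mmp2 (left) and Timp1 (right), with 1 point per library, colored by group and numbered by replicate. Mmp14 and Mmp2 were low together in neferine replicate 4 and AngII replicate 6 (r = 0.556 over 17 libraries), and the negative r of Mmp14 with Timp1, -0.514, rests on these same libraries.

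The transcripts most like each member were named by the Spearman rho of the signal over the 17 libraries, among the other 29978 tested transcripts. For Timp3 these were ENSMUST00000208247 and ENSMUST00000037315, at 0.958 and 0.929, and 1.34% of all transcripts had a rho over 0.7 with it. For Mmp9 the nearest was ENSMUST00000160221 at 0.869, for Mmp14 ENSMUST00000026917 at 0.858, for Timp1 ENSMUST00000002327 at 0.880 and for Mmp2 ENSMUST00000111244 at 0.808. The shares over 0.7 were 0.537%, 0.230%, 0.307% and 0.0634% in that order. The highest of so many values is high by selection, all points share the same libraries, and the identifiers are not paired with gene names here.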

How the data were processed

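RNA of abdominal aorta was measured in 5 Control, 6 AngII and 6 AngII with neferine samples. Per the labels' protocols, ribosomal RNA was depleted before library construction. The deposited values are a linear signal per transcript, 1 file per sample. Per the file headers no unit is named. Not given in the sources used here are the aligner, quantification tool, strand setting and genome build. Limma is named, with no role, per the submitters' processing notes. Column totals were 392615 to 569873.

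Transcripts listed in all files were kept where 5 or more libraries had a signal of 1 or more, and were tested as log2(signal + 1) with limma 3.58.1 (R 4.3.3; trended, robust empirical Bayes), all samples in 1 fit with a term per group. The script was tested on simulated data. The design foresaw this branch for values that are not counts. Permutation tests of single members were exact, and correlations used 100000 permutations. Figures were drawn with matplotlib 3.10.9. The members, lists and tests were chosen with earlier results of these data known. All 5 members are named, with the 2 transcripts most like each by Spearman rho, of which both are printed for Timp3 and the nearest for the others. Planned lists of other MMPs, activators, substrates and cell type markers were not analysed here, since 0 identifiers matched the RefSeq table (GRCm38.p6). No sequences or coordinates are printed, and RefSeq gene positions served only to find genes that overlap the members. Alternatives covered constants, filters, scaling, variance model, weights, samples, the replicate block and single libraries.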

Additional observations from a re-analysis of the deposited data

Results flagged for a closer look

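Of 15 groups of 5 or 6 values examined (5 members in 3 groups), 2 had 1 library far from the others, in both cases neferine replicate 4. The limits used would flag about 5% of groups of normally distributed values. The signals were not shown to be so distributed, and Mmp9 with neferine was mostly listed at 0. No excess over chance is therefore read from the 2 groups. The Mmp9 signal of neferine replicate 4 was 5.24, while replicates 1, 2, 3 and 6 were listed at 0 and replicate 5 was at 0.0185. Its Timp1 signal was 181.9, where the next neferine library was at 37.8. As log2(signal + 1), where the test was not run, these were 7.51 and 5.28. At the other end, neferine replicates 5 and 1 were at 1.69 and 3.96, a gap of like size. The cause was not tested.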

How the results depend on the processing

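No member was called under any alternative, which were 30 for AngII against Control and 29 for each other comparison. The rank sum test among them says nothing of stability, since its smallest possible p (0.00433, or 0.00216 for neferine against AngII) is far above what the adjustment asks of a single transcript. Leaving out a library of the group not compared left the fitted differences of the members as they were. So did the filters, the variance model and fitting the compared groups alone. Such fits could change only p and its adjustment. Among all alternatives the lowest adjusted p was 0.131, for Mmp9 of neferine against Control without neferine replicate 4 (limma). Fits of 5 or 6 samples a group with this spread give wide intervals, and read depth is unknown. Small differences could not be shown, and larger ones could go uncalled, such as that Mmp9 difference of -2.01.

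Counts of called transcripts varied. For AngII against Control (0 in the report) they were 6 with library weights, 7 with the compared groups alone, 7 over all rows of the 11 files and 6 without the 3 libraries that stood apart (AngII replicates 2 and 6, neferine replicate 1), and 0 to 12 leaving out 1 library. For neferine against AngII (0) they were 3 with weights, 2 with the compared groups alone, 15 without the 3 libraries, and 0 to 11 leaving out 1. For neferine against Control (11) they were 4 without a filter, 63 with weights, 26 with the compared groups alone, 0 by the rank sum test, 0 with the replicate block, 106 without the 3 libraries and 0 to 31 leaving out 1, the highest without AngII replicate 6. The cause was not tested.

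Replicate numbers were not taken to pair samples. Deviations of same-numbered libraries correlated at -0.147 to 0.0640 over the 3 comparisons, none over 0.1, and at most 2 of 5 libraries correlated best with their own number. The replicate block changed no call of a member.

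Signs of small, uncalled differences turned in some fits. Mmp14 for AngII against Control was 0.00161 with upper quartile scaling, 0.0797 with quantile normalization, 0.22 with weights and 0.24 without the 3 libraries, and -0.17 to 0.26 leaving out 1. Without the 3 libraries, Mmp9 for AngII against Control was 0.0552 and Mmp14 for neferine against Control 0.00847. Timp3 for AngII against Control was -0.20 with quantile normalization, -0.0446 with the replicate block and -0.11 to 0.26 leaving out 1. Mmp2 for neferine against Control was -0.15 with the replicate block and -0.12 to 0.48 leaving out 1. Leaving out 1 library gave -0.36 to 0.28 for Mmp14 of neferine against AngII, -0.31 to 0.27 for Mmp14 of neferine against Control, -0.00348 to 0.40 for Timp1 of AngII against Control and -0.0232 to 0.39 for Timp3 of neferine against AngII. The cause was not tested.

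With 0.1 added, the Mmp9/Timp1 ratio differed between neferine and AngII by -4.08 and between neferine and Control by -5.17, and Mmp9/Timp3 by -3.34 and -4.18. With nothing added, which leaves 2 neferine libraries, these were -4.12, -4.27, -3.45 and -3.52, against -2.19, -2.77, -1.44 and -1.80 in the report's form. With group means removed or without the 3 libraries, correlations that turned sign were Mmp9 with Timp1, at 0.353 with group means removed and 0.00167 without the 3 libraries, and, without the 3 libraries, Mmp9 with Timp3 at -0.154 and Mmp14 with Timp3 at -0.151. Without the 2 libraries farthest on the first gene, Mmp2 with Timp1 and with Timp3, Mmp9 with Timp3 and Mmp14 with Timp1 also turned, as given in the report. For Mmp9 these 2 were an arbitrary choice among libraries tied at 0. Mean percentiles, leaving out 1 library, and all other ratios moved by less than 1 SD, but that SD is wide: without neferine replicate 4, Mmp2/Timp1 went from -1.14 to -0.15 against Control and from -0.18 to 0.80 against AngII, and Mmp14/Timp1 from -1.06 to -0.12 against AngII.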
